A study of Oryza sativa with 12 samples.

Results

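Leaf blades of rice (Oryza sativa) plants carrying the Oshmgb1 mutation were compared with those of wild-type (WT) plants, both kept with high phosphate (Pi) throughout. The comparison took 6 of the 12 libraries of the series: 3 from the mutant and 3 from WT, chosen by their labels for genotype and Pi supply. The high-Pi plants had 21 d of high Pi, given as 200 µM in the design text. The same text also gives 200 µM for low Pi, so the actual low-Pi concentration is unclear, and "low" below means only the label. The other 6 libraries, 3 per genotype, came from plants moved to low Pi for the last 7 d after 14 d of high Pi. They served for the shared estimate of spread and as a second, separate comparison of the genotypes. All plants grew under 12 h of light at 30 °C with nights at 22 °C. The labels do not give the nature of the allele, the number of independent lines or how many plants were pooled. They also do not say whether replicates came from separate plants, so the p-values reflect variation from sample to sample that could be technical alone.

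HMGB proteins are small, abundant chromatin proteins that bind DNA through an HMG box, with little sequence preference, and bend it. They loosen the contact of linker histone H1 with nucleosomes and help transcription factors and remodelling complexes reach DNA, so changes in their amount can touch many genes. Pi is a nutrient that limits rice growth. With ample Pi, as here, SPX domain proteins bind inositol pyrophosphates and hold back the MYB factors that turn on Pi transporters, phosphatases and lipid remodelling. The comparison at high Pi therefore shows the mutant leaf with no imposed starvation.

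The values were FPKM, in which fragment counts are scaled by transcript length and by library size, so that levels can be set side by side between genes per length. FPKM summed to between 549457 and 571475 in the 6 high-Pi libraries, and 16093 to 16808 genes reached 1 FPKM in each. Read counts were not analysed here, so sequencing depth is unknown. Mutant library 3 stood apart from the WT libraries (r of 0.9494 to 0.9528 over tested genes on the log2 scale) and was nearer to the other mutant libraries (0.9647 to 0.9741). The labelled tissue was looked at through 21 loci described as Rubisco small chain or chlorophyll-binding proteins. Their summed level was 44926.4 to 45767.9 FPKM in WT and 35292.9 to 49408.1 in the mutant, and limma called 0 of 20 tested (0 at an unadjusted p below 0.05). Of 18 loci described as glutelins, oleosins or other seed storage proteins, 2 passed the filter, and of 23 pollen or anther loci 10 did. With limma 0 were called in either list (1 and 0 at an unadjusted p below 0.05). The seed loci summed to 20.3 to 20.7 FPKM in WT and 17.0 to 22.8 in the mutant. The pollen or anther loci summed to 47.8 to 65.5 and 37.6 to 63.8 FPKM. The calls compare the genotypes and do not test tissue identity. A list of root markers matched 0 loci, so root was not checked. Over all 17630 tested genes, 3860 had an unadjusted limma p below 0.05. In bulk leaf blades, fewer cells of a type and less RNA per cell cannot be told apart.

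The locus described as HMG1/2 that is known outside the files as OsHMGB1, LOC_Os06g51220, was reduced but not absent in the mutant. It stood at 1176.75, 1308.35 and 1211.23 FPKM in the WT libraries and at 551.94, 516.41 and 547.55 FPKM in the mutant libraries. All mutant libraries lay below all WT libraries, with a log2 fold of −1.19 (SE 0.13, adjusted p = 0.00257). Folds here and below are the mutant minus WT on the scale of log2(FPKM + 1), which understates the change of weakly expressed genes, and adjusted p-values are those of limma over all tested genes with Benjamini-Hochberg adjustment. A second HMG1/2 locus, LOC_Os09g37910, went the other way. Its levels were 27.12, 35.3 and 32.92 FPKM in WT and 113.08, 165.91 and 159.57 FPKM in the mutant, without overlap. The log2 fold was 2.15 (SE 0.28, adjusted p = 0.00561), the largest rise among genes with an informative description, where only genes without overlap were ranked. Both calls held in 12 of 12 fits that each left out 1 library, and in the fit to the 6 high-Pi libraries alone. At low Pi LOC_Os06g51220 was lower again (−1.48, adjusted p = 0.000266), whereas LOC_Os09g37910 had a fold of 0.83 that did not pass (adjusted p = 0.0649). The difference between those folds of LOC_Os09g37910 did not pass either (interaction −1.32, adjusted p = 0.0942).

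Of the other loci with HMG descriptions, 4 were tested and not called. LOC_Os04g47690, the second most abundant, had 163, 190.7 and 150.22 FPKM in WT and 166.94, 192.67 and 181.48 FPKM in the mutant (fold 0.11, adjusted p = 0.572). LOC_Os02g27060, described as high mobility group, had means of 46.2 FPKM in WT and 42.8 FPKM in the mutant (fold −0.10, adjusted p = 0.65). LOC_Os01g47600 and LOC_Os02g44930 stayed between 3.16 and 11.54 FPKM, and the libraries of the genotypes overlapped for both. The mean of LOC_Os09g37910 went from 31.8 FPKM in WT to 146.2 FPKM in the mutant. That of LOC_Os06g51220 went from 1232.1 to 538.6 FPKM, so the mean level gained was smaller than the mean level lost. Whether these changes are linked was not tested.

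**Figure D1:**
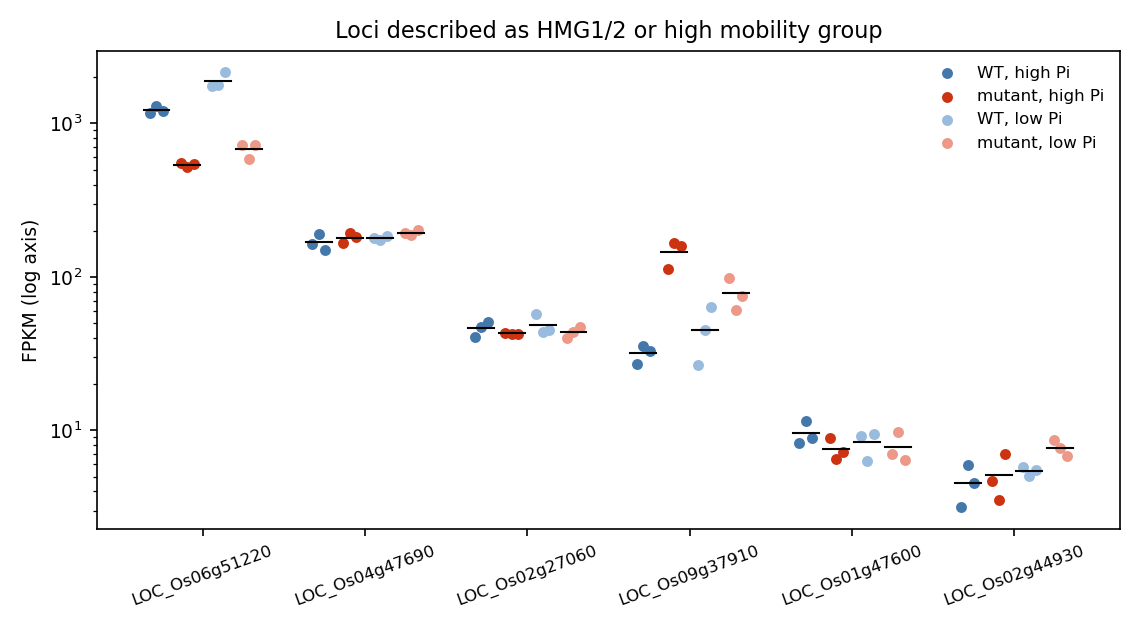
FPKM of each library (points, log axis) for the 6 tested loci described as HMG1/2 or high mobility group, by genotype and Pi supply, with black bars for the mean of 3 libraries. LOC_Os06g51220 lies lower and LOC_Os09g37910 higher in all mutant libraries at high Pi, while the high-Pi points of the 2 weakest loci overlap between the genotypes.

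Across the leaf transcriptome 631 of 17630 tested genes were called at an adjusted p below 0.05, which is 3.58% of those tested. Lower genes outnumbered higher ones: 401 were lower in the mutant (2.27% of those tested) and 230 higher (1.3%). The split was less uneven with other scalings, at 455 lower and 340 higher with median-of-ratios scaling and 434 and 329 with upper-quartile scaling. An absolute log2 fold of at least 1 was reached by 109 lower and 37 higher called genes, so most differences were under 2-fold on this scale. The median fold over all tested genes was −0.02, and 3860 of them had an unadjusted p below 0.05. The libraries of the genotypes did not overlap for any called gene, which was also true of 24.2% of all tested genes. The share called was similar across levels, from 2.73% of the genes above 100 FPKM to 4.07% of those below 1 FPKM. By chromosome it ran from 2.14% on chromosome 6 to 4.17% on chromosome 8.

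The list of called genes leaned on the whole set of libraries. In the fit to the 6 high-Pi libraries alone 103 genes were called, 92 of them among the 631. Leaving out 1 library gave between 177 calls (without WT library 3) and 851 (without mutant library 1), with 215 without WT library 1, 270 without WT library 2, 214 without mutant library 2 and 241 without mutant library 3. Calls in all 12 fits that leave out 1 library numbered 106, of which 36 were higher and 70 lower in the mutant. Below, "held in 12 of 12 fits" refers to these fits, and where a call was lost the highest adjusted p over them is given.

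**Figure D2:**
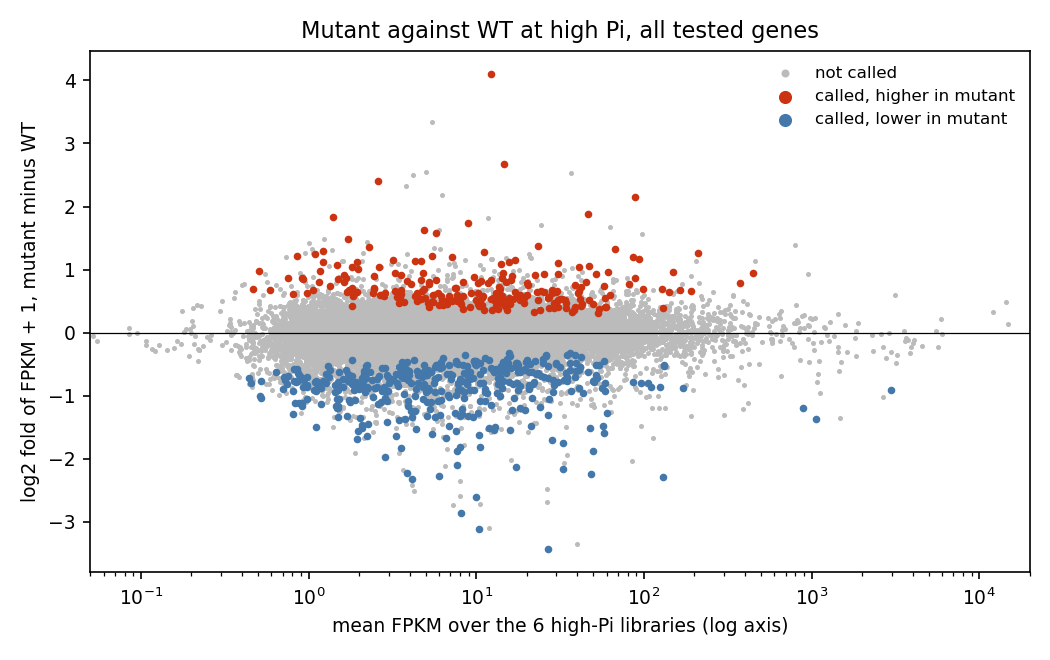
Log2 fold of FPKM + 1, mutant minus WT at high Pi, against the mean FPKM of the 6 high-Pi libraries (log axis) for the 17630 tested genes. Blue points are the 401 genes called lower and red points the 230 called higher in the mutant; both lie across the whole range of levels.

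The 14 largest rises among described genes covered regulators, an immune receptor, transporters and wall proteins, and were of different basal level. LOC_Os10g41838, an F-box protein of the kind that selects targets for ubiquitination, had 1.52, 2 and 2.1 FPKM in WT and 6.97, 8.17 and 8.53 FPKM in the mutant (fold 1.63, SE 0.19, adjusted p = 0.00342). LOC_Os11g12340, described as disease resistance protein RPM1 after an intracellular immune receptor of Arabidopsis, had 15.52, 11.88 and 10.19 FPKM in WT and 36.89, 28.64 and 36.18 FPKM in the mutant (fold 1.38, adjusted p = 0.01). LOC_Os01g71970, a GRAS family factor of the plant-specific group that includes the DELLA growth repressors, rose from 4.94, 5.22 and 8.22 FPKM to 17.65, 13.69 and 16.63 FPKM (fold 1.28, adjusted p = 0.00746). The lowest mutant library lay above the highest WT library for each of the 3, which the ranking required.

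Some rises started from almost no transcript. LOC_Os04g58720, an anthranilate phosphoribosyltransferase of tryptophan synthesis, had 0.63, 0.29 and 0.37 FPKM in WT and 2.23, 3.17 and 3.66 FPKM in the mutant (fold 1.48, adjusted p = 0.00252). LOC_Os01g21590, described as a homeodomain protein, had at most 0.3 FPKM in WT and 2.47, 1.75 and 1.63 FPKM in the mutant (fold 1.25, adjusted p = 0.00252). LOC_Os09g29690, a beta-expansin of the group that loosens grass cell walls, had at most 0.52 FPKM in WT and 2.51, 1.23 and 2.73 FPKM in the mutant (adjusted p = 0.0127). These 6 calls held in 12 of 12 fits. The call of LOC_Os09g29690 was lost in the fit to the 6 high-Pi libraries (adjusted p = 0.0765). The flavin monooxygenase LOC_Os01g25470 was listed at 0, 0.12 and 0 FPKM in WT and at 2.39, 3.48 and 2.37 FPKM in the mutant, with a fold of 1.84 (adjusted p = 0.0457). Its call held in only 2 of 12 fits, with an adjusted p of up to 0.121 without mutant library 2, and it held in the 6-library fit (0.0177).

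The remaining rises of this rank concerned transporters and glycosidases, besides the core histone described below. The mitochondrial carrier LOC_Os08g37370 rose from 65.08, 43.78 and 47.53 FPKM to 99.61, 147.25 and 115.89 FPKM (fold 1.20, adjusted p = 0.0159). It was not called without WT library 3 (0.0553) or mutant library 2 (0.0505). LOC_Os04g43380, a GH1 beta-glucosidase gene fragment described as Os4bglu15, rose from 4.13, 3.08 and 1.78 FPKM to 7.46, 7.85 and 8.6 FPKM (fold 1.21, adjusted p = 0.0178). It was not called without mutant library 2 (0.0505) or 3 (0.0516). Its near neighbour by identifier, LOC_Os04g43400 (Os4bglu17), rose as well (fold 0.94, adjusted p = 0.0468), with a call in 3 of 12 fits and up to 0.136 without mutant library 3. Reads shared between these fragments and related glucosidase genes may have been split between them. The amino acid transporters LOC_Os04g47420 (fold 1.15) and LOC_Os04g12530 (1.13) and the antiporter LOC_Os01g17214 (1.09) were called with adjusted p of 0.0394, 0.0352 and 0.0493. Their calls held in 3, 7 and 3 of 12 fits, with up to 0.11, 0.104 and 0.143 without mutant library 3, mutant library 2 and mutant library 3.

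**Figure D3:**
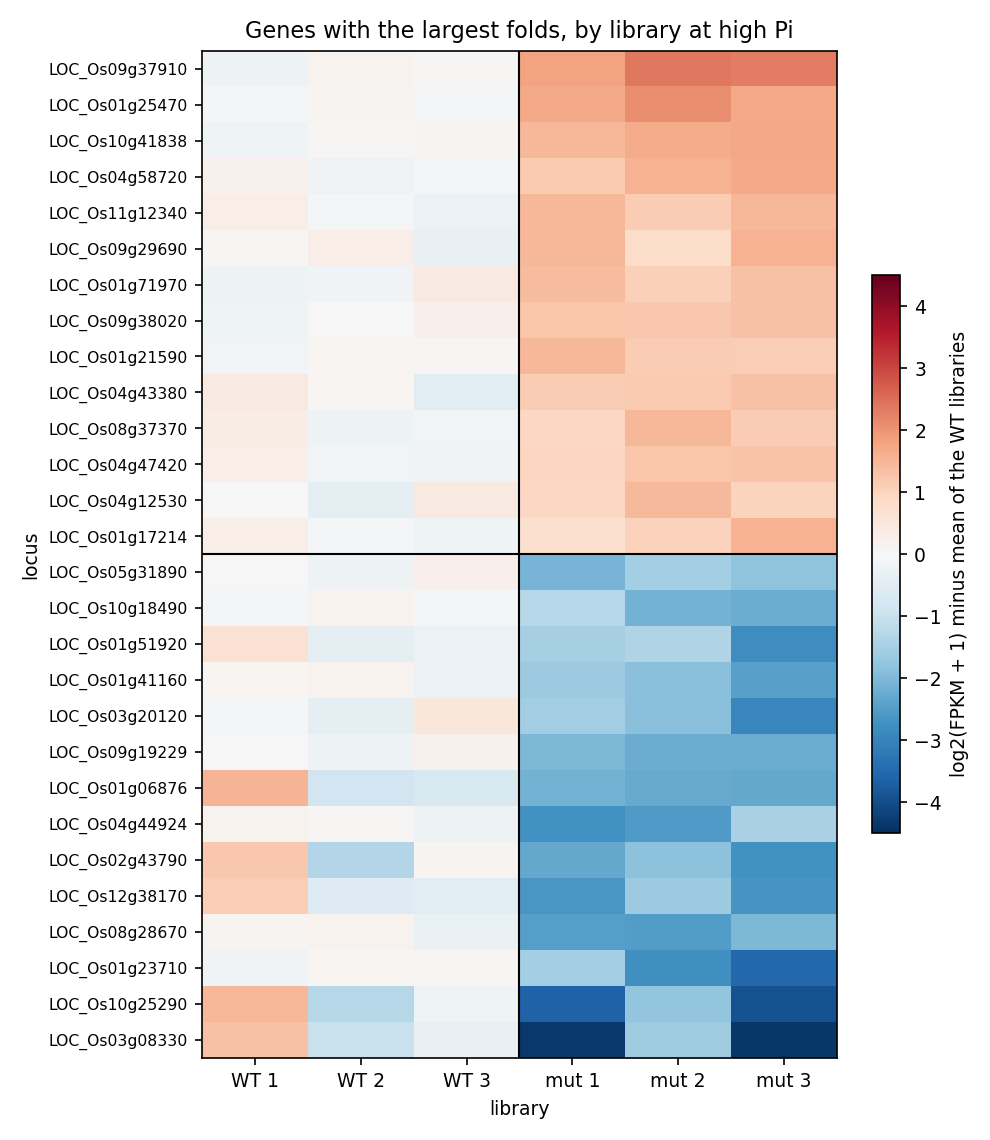
Log2(FPKM + 1) of each high-Pi library minus the mean of the 3 WT libraries, for the 14 called genes with the largest rises (top) and the 14 with the largest falls (bottom) among described genes without overlap. Most rows are even within a genotype; in the rows of LOC_Os03g08330, LOC_Os10g25290, LOC_Os02g43790, LOC_Os12g38170 and LOC_Os01g06876 WT library 1 is well above the other WT libraries.

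The 14 largest falls among described genes ranged further than the 14 largest rises, and those with even replicates included defence, kinase and metabolic genes. LOC_Os08g28670, a Bet v I type pathogenesis-related protein (the PR-10 family of small ligand-binding proteins), had 8.3, 8.44 and 5.92 FPKM in WT and 0.52, 0.5 and 1.1 FPKM in the mutant (fold −2.33, SE 0.16, adjusted p = 0.000211). LOC_Os09g19229, a protein kinase, had 54.78, 46.14 and 61.53 FPKM in WT and 12.36, 10.7 and 10.65 FPKM in the mutant (fold −2.17, adjusted p = 0.00579). LOC_Os04g44924, a short-chain dehydrogenase, had 88.9, 83.02 and 67.6 FPKM in WT and 11.02, 12.87 and 28.52 FPKM in the mutant (fold −2.24, adjusted p = 0.0119). No mutant library reached a WT library for any of these genes, which the ranking required.

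LOC_Os01g23710, a NAC (no apical meristem) transcription factor, fell from 15.26, 18.39 and 18.29 FPKM to 5.4, 1.68 and 0.56 FPKM (fold −2.61, adjusted p = 0.0088). Mutant library 1 kept the most transcript. The glycosyltransferase LOC_Os03g20120 fell from a mean of 28.6 FPKM to 5.99 FPKM (−2.14, adjusted p = 0.0127), the FAD-dependent oxidoreductase LOC_Os01g41160 from 5.12 to 0.587 FPKM (−1.98, adjusted p = 0.00539) and the aspartyl protease LOC_Os05g31890 from 16.9 to 4.08 FPKM (−1.82, adjusted p = 0.0088). These 7 calls held in 12 of 12 fits. The calls of LOC_Os01g23710 (0.0674) and LOC_Os03g20120 (0.0699) were lost in the 6-library fit. The cytokinin O-glucosyltransferase LOC_Os10g18490, of a group that stores cytokinin as a glucoside, fell from 11.65, 14.04 and 11.77 FPKM to 4.53, 2.06 and 1.88 FPKM (−1.88, adjusted p = 0.027). Its call held in 7 of 12 fits, with up to 0.0859 without mutant library 3. The phosphotransferase LOC_Os01g51920 (−1.88, adjusted p = 0.0282) had 118.03 FPKM in WT library 1 against 54.84 and 61.65 FPKM in the others, and was not called without WT library 1 (0.0769), WT library 3 (0.0651) or mutant library 3 (0.065). Over all 28 genes of largest fold, 14 calls held in 12 of 12 fits and 15 in the 6-library fit.

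The 2 largest falls among the called, described genes were ZIM genes of the jasmonate response, with uneven replicates. ZIM domain (JAZ) proteins repress jasmonate responses and are themselves transcribed when jasmonate acts. The ZIM gene LOC_Os03g08330 had 96.84, 18.78 and 30.17 FPKM in WT and 0.94, 12.08 and 0.91 FPKM in the mutant (fold −3.43, SE 0.72, adjusted p = 0.0302). LOC_Os10g25290, also a ZIM gene, had 41.54, 5.18 and 12.35 FPKM in WT and 0.23, 3.39 and 0 FPKM in the mutant (−3.11, adjusted p = 0.0303). WT library 1 was high and mutant library 2 was high for both, and the groups did not overlap, which the ranking required.

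Both ZIM calls (LOC_Os03g08330 and LOC_Os10g25290) were lost without WT library 1 (0.0787 and 0.0711), WT library 3 (0.073 and 0.076), mutant library 1 (0.0578 and 0.0574) or mutant library 3 (0.095 and 0.0959). They were also lost in the 6-library fit (0.124 and 0.126). LOC_Os01g27230, a 12-oxophytodienoate reductase of jasmonate synthesis, had more even replicates, with 15.74, 18.09 and 18.58 FPKM in WT and 10.82, 8.55 and 9.16 FPKM in the mutant (−0.82, adjusted p = 0.0127). Its call held in 12 of 12 fits. The allene oxide cyclase LOC_Os03g32314, an earlier step, fell from a mean of 15.7 to 9.74 FPKM (−0.63, adjusted p = 0.0476) and was called in 3 of 12 fits, with up to 0.137 without mutant library 3.

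Of 31 jasmonate and ZIM loci 20 were tested; 4 were called lower and 0 higher, against 2.27% and 1.3% of all tested genes, and 17 of 20 folds were below 0 (median −0.46 against −0.02 over all genes). The count of lower calls ran from 1 (without WT library 1, WT library 3 or mutant library 3) to 6 (without WT library 2). The summed level of the list was 702.72, 259.04 and 319.9 FPKM in WT and 196.85, 258.28 and 148.28 FPKM in the mutant. WT library 1 thus held the highest sum, and WT library 2 was level with mutant library 2. Without WT library 1 the median fold was −0.43.

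Of 42 tested loci for pathogenesis-related proteins, chitinases and protease inhibitors, 33 had folds below 0 (median −0.27), and 1 was called lower (2.27% of all tested genes were), the Bet v I gene LOC_Os08g28670 given above. That count was 4 without WT low-Pi library 3 and 2 without mutant library 1 or 2. The osmotin LOC_Os12g38170, a thaumatin-like PR-5 protein, was not matched to this list and is not in its counts. It had 400.88, 125.92 and 129.64 FPKM in WT and 29.57, 60.11 and 29.08 FPKM in the mutant (−2.30, adjusted p = 0.0459). It was called in 3 of 12 fits, with up to 0.127 without mutant library 3 and 0.103 without WT library 1. The Bowman-Birk trypsin inhibitor LOC_Os01g03310 had 141.29, 36.59 and 34.14 FPKM in WT and 3.94, 21.3 and 0.6 FPKM in the mutant, and was not called (fold −3.35, adjusted p = 0.0687).

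Among WRKY factors, which control defence and senescence genes, limma called 0 of 52 tested, and 38 folds were below 0. An unadjusted p below 0.05 was reached by 12 of them, against 3860 of all 17630 tested genes. Without WT library 2 limma called 3 lower. The AP2/ERF list had 2 of 59 called lower, close to the 2.27% of all tested genes: the ethylene-responsive factors LOC_Os02g43790, with 20.89, 2.83 and 9.28 FPKM in WT and 0.93, 1.68 and 0.45 FPKM in the mutant (−2.28, adjusted p = 0.0416), and LOC_Os06g11860 (−1.08, adjusted p = 0.0321). They were called in 3 and 8 of 12 fits, with up to 0.12 and 0.0973 without mutant library 3. The Cf-2 type receptor LOC_Os01g06876, named after a tomato resistance protein, had 16.87, 2.41 and 2.83 FPKM in WT and at most 0.41 FPKM in the mutant (−2.23, adjusted p = 0.0398), with a call in 4 of 12 fits and up to 0.1 without mutant library 3.

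Wall-associated and cysteine-rich receptor-like kinases, which sit in the plasma membrane and sense the wall or the apoplast, had 6 genes called lower and 1 higher of 112 tested, against 2.27% and 1.3% of all tested genes. Lower calls fell to 1 without WT library 1, WT library 3 or mutant library 2 and to 2 without mutant library 3, and the higher call was lost in each of these fits. LOC_Os04g25060 fell from 7.96, 8.91 and 8.68 FPKM to 3.86, 1.99 and 1.12 FPKM (−1.60, adjusted p = 0.0103), a call that held in 12 of 12 fits and was lost in the 6-library fit (0.0674). LOC_Os04g25650 (−1.67), LOC_Os04g29580 (OsWAK37, −0.74) and LOC_Os08g25430 (−0.56) were called lower with adjusted p of 0.042, 0.0282 and 0.0247. Their calls held in 2, 8 and 7 of 12 fits, with up to 0.114, 0.0899 and 0.0796 without WT library 2, mutant library 3 and mutant library 2. NBS-LRR immune receptors went both ways, with 3 higher and 1 lower of 168 tested (1.3% and 2.27% of all tested genes), and 81 folds above 0 against 87 below. Besides the RPM1-like LOC_Os11g12340, the NB-ARC gene LOC_Os10g33440 rose from 0.33, 0.22 and 0.6 FPKM to 1.57, 1.44 and 1.39 FPKM (0.84, adjusted p = 0.0127), in 12 of 12 fits but not in the 6-library fit (0.0661). The NB-ARC gene LOC_Os11g15700 fell (−0.77, adjusted p = 0.023), in 8 of 12 fits and up to 0.0712 without mutant library 2.

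Class III peroxidases, secreted enzymes that use hydrogen peroxide in wall cross-linking and defence, had 4 called lower and 0 higher of 40 tested, against 2.27% and 1.3% of all tested genes, with a median of −0.37. Without mutant library 3 the median was −0.21 and 1 was called lower; 1 was also called without WT library 1 or WT library 3, 2 without WT library 2 or mutant library 2, and 7 without mutant library 1. LOC_Os08g41090 fell from 20.35, 21.47 and 27.61 FPKM to 9.64, 10.33 and 8.01 FPKM (−1.22, adjusted p = 0.00257), in 12 of 12 fits. LOC_Os04g59190 fell from 3, 2.47 and 3.25 FPKM to 1.12, 1.41 and 1.09 FPKM (−0.82, adjusted p = 0.0221). That call was lost without WT library 1 (0.0627), WT library 3 (0.0726) or mutant library 3 (0.0644). Specialised metabolism had a few called genes: of 14 tested phytoalexin genes 2 were called lower and 1 higher, against 2.27% and 1.3% of all tested genes. The terpene synthases LOC_Os12g30824 (1.81, 1.09 and 2.07 FPKM against 0.29, 0.24 and 0; −1.16, adjusted p = 0.01) and LOC_Os04g27790 (−1.49, adjusted p = 0.023) fell. The phenylalanine ammonia-lyase LOC_Os04g43760, the entry to phenylpropanoids, rose from 6, 6.11 and 5.29 FPKM to 10.14, 11.2 and 11.12 FPKM (0.80, adjusted p = 0.023). The first held in 12 of 12 fits, though not in the 6-library fit (0.0597), and the others in 8 and 7, with up to 0.0773 and 0.075 without WT library 3.

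Histone transcripts had folds mostly above 0. Of 59 loci described as core or linker histones 39 were tested: 29 had folds above 0, the median was 0.45 (−0.02 over all genes) and the libraries did not overlap for 18 of 39 (24.2% of all genes). Called were 2, both higher, against 1.3% of all tested genes called higher. The count was 0 in 9 of the 12 fits without 1 library, and 8 were called higher and 1 lower without WT low-Pi library 3. LOC_Os09g38020, a core histone, had 107.11, 120.16 and 145.05 FPKM in WT and 296.06, 284.31 and 311.75 FPKM in the mutant (fold 1.26, SE 0.31, adjusted p = 0.0488). LOC_Os07g36140, also a core histone, had 279.56, 315.2 and 313.63 FPKM in WT and 509.23, 585.89 and 665.12 FPKM in the mutant (0.95, adjusted p = 0.0468). The calls held in 2 and 3 of 12 fits, with up to 0.123 and 0.13 without mutant library 3, while both held in the 6-library fit (0.0352 and 0.0489).

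The histone H3 gene LOC_Os06g04030, with 282.46, 275.58 and 304.7 FPKM in WT and 539.04, 630.25 and 735.64 FPKM in the mutant, just missed the threshold (1.13, adjusted p = 0.0504). The linker histone H1 gene LOC_Os04g18090 had 388.4, 484.17 and 389.16 FPKM in WT and 734.19, 1075.46 and 1699.84 FPKM in the mutant (1.40, adjusted p = 0.058). Summed over the 59 loci, histone FPKM was 2786.78, 3215.63 and 3083.2 in WT and 4275.13, 4845.71 and 5894.39 in the mutant, so each mutant library lay above each WT library. Reads shared between near-identical histone genes make single loci uncertain.

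The list for DNA replication, cyclins and mitosis had folds centred near 0. Of its 108 loci, 53 were below 1 FPKM in all 6 high-Pi libraries. Whether the number of dividing cells differed was not tested. Of 51 tested loci for DNA replication, cyclins and mitosis limma called 0 (10 at an unadjusted p below 0.05, against 3860 of all 17630). Of these loci 23 had folds above 0, and the median was −0.03. Their summed level was 432.1 to 468.45 FPKM in WT and 434.79 to 451.53 FPKM in the mutant. At low Pi the median histone fold was −0.64, with 11 of 39 called lower, against 11.1% of all tested genes, and 0 higher. The summed histone level there was 3643.39, 4313.07 and 7496.06 FPKM in WT and 3631.09, 3095.46 and 3525.47 FPKM in the mutant. WT low-Pi library 3 stood above the rest, and WT low-Pi library 1 was level with mutant low-Pi library 1. Without WT low-Pi library 3 the low-Pi median was −0.39 with 5 called lower, and over all fits without 1 library between 3 (without mutant low-Pi library 1 or 2) and 20 (without WT low-Pi library 1) were. The difference between the Pi levels passed for 8 of 39 (3.64% of all genes; 3 to 19 in the fits without 1 library, fewest without WT library 2 or mutant low-Pi library 2 and most without WT low-Pi library 1), among them LOC_Os09g38020 (interaction −2.47, adjusted p = 0.0123) and LOC_Os06g04030 (−2.26, adjusted p = 0.0123).

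**Figure D4:**
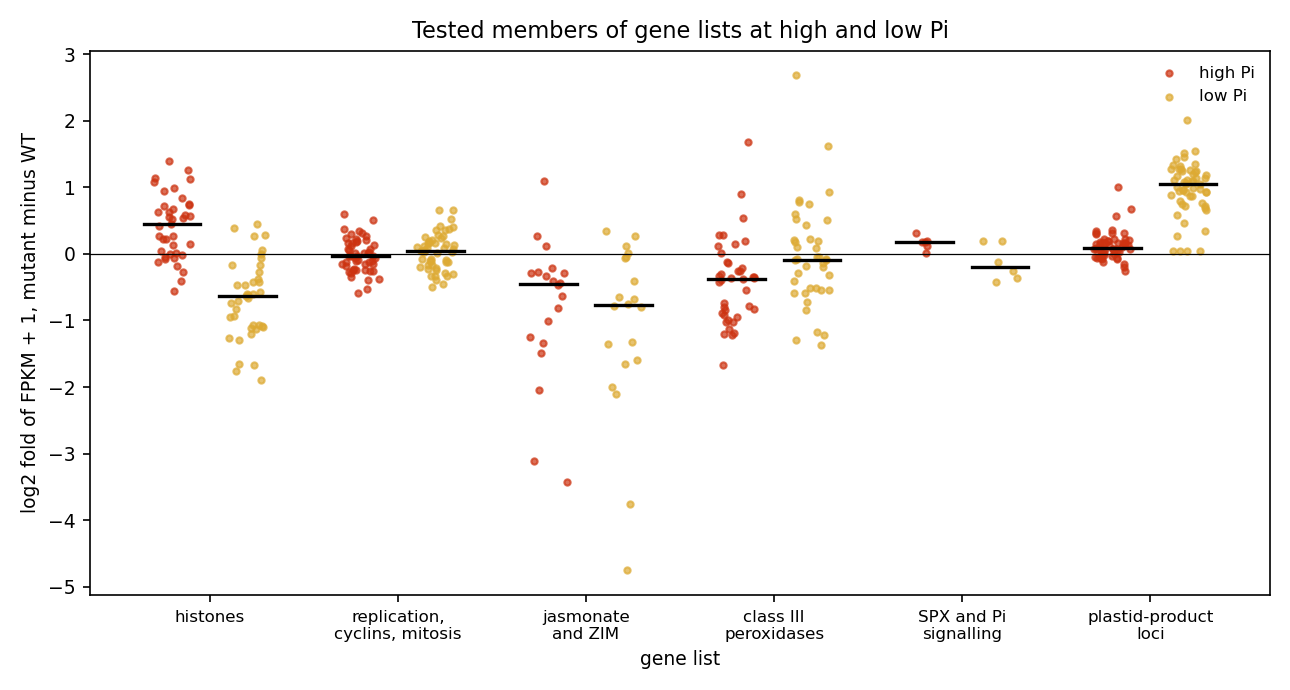
Log2 fold of FPKM + 1, mutant minus WT, for each tested member of 6 gene lists (points, spread sideways for clarity) at high and low Pi, with black bars for the median. Histone medians are 0.45 at high Pi and −0.64 at low Pi, replication genes centre near 0 at both, and plastid-product loci stand near 0.10 at high Pi and 1.05 at low Pi.

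Among 91 tested chromatin remodelers and modifiers 4 were called lower and 1 higher, against 2.27% and 1.3% of all tested genes. The counts were both 0 without WT library 2, WT library 3 or mutant library 2. The bromodomain protein LOC_Os08g09340, of a class that binds acetylated histones, rose from 14.63, 13.95 and 13.31 FPKM to 22.59, 21.19 and 20.77 FPKM (0.59, adjusted p = 0.0207). It was not called without WT library 2 (0.0539), WT library 3 (0.0665) or mutant library 2 (0.0578). The histone deacetylase LOC_Os05g36930 fell from 5.69, 9.43 and 10.36 FPKM to 4.63, 2.63 and 1.38 FPKM (−1.34, adjusted p = 0.0312). It was called in 8 of 12 fits, with up to 0.1 without WT library 3. LOC_Os04g01130, described as the chromatin modification protein EAF3, and the methyl-CpG binding protein LOC_Os04g52380 were called lower (−0.68 and −0.55, adjusted p = 0.0434 and 0.049), each in 1 of 12 fits and up to 0.107 and 0.137.

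The counts of called Pi genes stand beside 3.58% of all tested genes called in either direction. Of 6 tested loci on a list of SPX domain proteins and Pi starvation signalling, some of which were placed by identifier from knowledge outside the files, limma called 0 (0 at an unadjusted p below 0.05) and the 6 folds lay between 0.02 and 0.32. The SPX gene LOC_Os02g10780 had 3.93, 7.48 and 5.54 FPKM in WT and 7.59, 8.63 and 5.39 FPKM in the mutant, which overlapped. Of 20 tested phosphatases and phosphodiesterases limma called 0 (5 at an unadjusted p below 0.05, against 3860 of all 17630 tested genes). The acid phosphatase LOC_Os05g10310 had 15.39, 2.26 and 3.26 FPKM in WT and at most 0.59 FPKM in the mutant (−2.18, adjusted p = 0.0585).

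Of 16 tested Pi transport genes 0 were called higher and 1 lower, against 1.3% and 2.27% of all tested genes: LOC_Os08g25624, described as a phosphate translocator. It had 36.8, 38.85 and 34.75 FPKM in WT and 16.59, 15.12 and 20.26 FPKM in the mutant (−1.05, SE 0.11, adjusted p = 0.0016), in 12 of 12 fits. Of 22 tested membrane lipid genes 1 was called higher and 0 lower, against the same shares. It was the phospholipase D LOC_Os06g40190, which rose from 2.51, 2.02 and 2.36 FPKM to 3.59, 4.34 and 4.78 FPKM (0.66, adjusted p = 0.0272). That call held in 7 of 12 fits, with up to 0.0887 without mutant library 3.

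Among 45 tested nuclear photosystem and light-harvesting genes 1 was called lower, about the 2.27% of all tested genes, the oxygen-evolving enhancer domain gene LOC_Os07g01480, which fell from 6.42, 5.43 and 6.41 FPKM to 2.81, 3.07 and 4.31 FPKM (−0.70, adjusted p = 0.0282). It was called in 8 of 12 fits, with up to 0.0867 without mutant library 2. Of 55 tested loci described as products of the plastid genome, LOC_Os04g16736, a copy of the photosystem I assembly factor ycf3, was called higher, as 1.3% of all tested genes were (0.75, 1.18 and 0.99 FPKM against 2.4, 2.74 and 3.79; 1.00, adjusted p = 0.0185). It was lost without WT library 1 (0.0577), WT library 3 (0.0547) or mutant library 3 (0.0539). The median of these loci was 0.10 (0.01 without mutant library 3, where 0 were called, and 0.19 without mutant library 2), whereas at low Pi 41 of 55 were called higher, against 4.72% of all tested genes, with a median of 1.05; 24 to 41 were in the fits without 1 library, fewest without mutant low-Pi library 1. Reads of such loci may come from plastid transcripts that match nuclear copies.

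Carbon metabolism had calls in both directions. The glyceraldehyde-3-phosphate dehydrogenase LOC_Os02g38920 rose from 130.21, 96.62 and 77.46 FPKM to 197.45, 162.95 and 228.71 FPKM (0.97, adjusted p = 0.0305), and the transketolase LOC_Os08g42410 from 48.96, 48.62 and 53.33 FPKM to 68.27, 68.24 and 64.99 FPKM (0.41, adjusted p = 0.0187). These were 2 of 38 tested loci with descriptions of enzymes that the Calvin cycle uses, with 0 called lower (1.3% and 2.27% of all tested genes). Both enzyme names also cover forms that work outside that cycle, and the descriptions do not say which form these loci encode. Of 56 genes for sugar, trehalose and starch, 2 were called higher and 3 lower, against the same shares. The sucrose-phosphate synthase LOC_Os01g69030 rose from 50.17, 46.1 and 51.61 FPKM to 69.84, 83.14 and 73.2 FPKM (0.60, adjusted p = 0.0181), and the neutral invertase LOC_Os04g33490 from a mean of 6.67 to 9.51 FPKM (0.45, adjusted p = 0.0217).

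Trehalose-6-phosphate is a signal of sucrose supply in plants. The synthases LOC_Os02g54820 (35.21, 35.63 and 23.89 FPKM against 11.28, 13.46 and 7.65; −1.48, adjusted p = 0.028) and LOC_Os05g44210 (−0.61, adjusted p = 0.0234) were lower in the mutant. So was the neutral invertase LOC_Os01g22900, with 100.63, 31.02 and 28.48 FPKM in WT and 11.57, 15.83 and 10.77 FPKM in the mutant (−1.76, adjusted p = 0.0418). Calls held in 9 of 12 fits for LOC_Os02g38920 and LOC_Os08g42410, 10 for LOC_Os01g69030, 7 for LOC_Os04g33490, LOC_Os02g54820 and LOC_Os05g44210, and 1 for LOC_Os01g22900. The highest adjusted p were 0.0955 for LOC_Os02g38920 and 0.0888 for LOC_Os02g54820 (both without mutant library 3), 0.0628 for LOC_Os08g42410 (without WT library 1), 0.0639 for LOC_Os04g33490 (without WT library 3) and 0.114 for LOC_Os01g22900 (without mutant library 3). For LOC_Os01g69030 and LOC_Os05g44210 they were 0.0592 and 0.073 (both without mutant library 2). Of 20 tested chlorophyll genes 1 was called higher and 0 lower, against 1.3% and 2.27% of all tested genes. It was the pheophorbide a oxygenase LOC_Os03g05310, which opens the chlorophyll ring during breakdown (0.38, adjusted p = 0.0442). The call held in 1 of 12 fits, with up to 0.119 without WT library 3.

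Cytosolic ribosomal protein genes had small folds, and the sign of their median rested on 1 library. Of 261 tested cytosolic ribosomal protein genes 192 had folds below 0 (median −0.12), and 3 were called lower, a smaller share than the 2.27% of all tested genes: LOC_Os03g17580 (L10; 43.56, 39.68 and 42.88 FPKM against 28.49, 23.78 and 27.5; −0.64, adjusted p = 0.0111), LOC_Os01g48690 (rpS20; −0.45, adjusted p = 0.0181) and LOC_Os01g70010 (L7Ae; −0.73, adjusted p = 0.0304). The median was −0.25 without mutant library 3 and changed sign to 0.03 without mutant library 2. Of 25 organellar ribosomal protein genes 20 had folds below 0 (median −0.22), and 2 were called lower, against 2.27% of all tested genes. These 2 were the chloroplast 50S proteins LOC_Os02g15900 (L21; 54.1, 43.47 and 46.48 FPKM against 27.35, 30.07 and 29.96; −0.70, adjusted p = 0.0088) and LOC_Os02g43600 (L19; −0.72, adjusted p = 0.014). The calls of LOC_Os03g17580, LOC_Os02g15900 and LOC_Os02g43600 held in 12 of 12 fits but not in the 6-library fit (0.0583, 0.0564 and 0.0706), and those of LOC_Os01g48690 and LOC_Os01g70010 in 10 and 8, with up to 0.0604 without WT library 1 and 0.0953 without mutant library 2.

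Pentatricopeptide repeat proteins, which process and edit organelle RNA, had 176 of 263 folds above 0 (median 0.09), 4 called higher and 1 lower, beside 1.3% and 2.27% of all tested genes. Without mutant library 3 the median was 0.02, with 1 called higher and 2 lower. LOC_Os04g46010 rose from 8.97, 6.93 and 9.21 FPKM to 12.34, 15.73 and 17.46 FPKM (0.78, adjusted p = 0.0127), in 12 of 12 fits but not in the 6-library fit (0.088). LOC_Os12g44170 (0.56, adjusted p = 0.0341) and LOC_Os09g02260 (0.43, adjusted p = 0.0427) were called in 6 and 1 of 12 fits, with up to 0.0973 and 0.127 without mutant library 3.

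Single genes of other regulators and of nutrient uptake were also called. MYB and NAC factors had 1 called higher and 2 lower of 121 tested. The list of helix-loop-helix, homeobox, CCT and B-box factors had 2 higher and 3 lower of 109. These counts stand against 1.3% higher and 2.27% lower of all tested genes. The MYB family factor LOC_Os08g06110, among the most abundant factors, had 295.2, 275.2 and 253.52 FPKM in WT and 448.15, 496.03 and 482.84 FPKM in the mutant (0.79, adjusted p = 0.0189). It was also the 1 called gene of 11 tested clock genes, where 1.3% of all tested genes were called higher. At low Pi its means were 37.7 FPKM in WT and 68.6 FPKM in the mutant. Time of harvest was not among the sample details used here. The MYB factor LOC_Os01g65370 fell from 8.85, 5.28 and 6.67 FPKM to 1.9, 2.62 and 0.89 FPKM (−1.53, adjusted p = 0.023). The CCT/B-box factor LOC_Os08g42440 fell from 7.39, 7.63 and 8.07 FPKM to 3.27, 3.15 and 2.76 FPKM (−1.10, adjusted p = 0.00451), in 12 of 12 fits, and the B-box factor LOC_Os01g10580 from a mean of 15.7 to 7.57 FPKM (−0.95, adjusted p = 0.0176).

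MADS-box factors control flowering and organ identity, and 3 were called lower among 20 photoperiod and MADS genes tested (2.27% of all tested genes; 1 was called without any one of WT libraries 1, 2 and 3 or mutant libraries 2 and 3): LOC_Os10g39130 (OsMADS56; 158.86, 156 and 151.6 FPKM against 119.31, 101.93 and 101.31; −0.53, adjusted p = 0.017), LOC_Os08g02070 (OsMADS26; −0.81, adjusted p = 0.026) and LOC_Os02g49840 (OsMADS57; −0.66, adjusted p = 0.0345). Calls of LOC_Os08g06110, LOC_Os01g65370, LOC_Os01g10580, LOC_Os10g39130, LOC_Os08g02070 and LOC_Os02g49840 held in 8, 9, 10, 10, 8 and 6 of 12 fits. Their highest adjusted p were 0.0655 and 0.0711 for the MYB factors (without WT library 3 and WT library 1), 0.0602 for LOC_Os01g10580 (without WT library 3), 0.0544 and 0.0922 for OsMADS56 and OsMADS57 (both without WT library 1) and 0.0755 for OsMADS26 (without WT library 2).

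Hormone genes were called in both directions. The auxin efflux carrier LOC_Os01g60230 rose from 31.23, 26.39 and 27.25 FPKM to 41.51, 49.79 and 55.12 FPKM (0.76, adjusted p = 0.023), and LOC_Os10g33940, auxin response factor 18, from a mean of 4.44 to 6.61 FPKM (0.49, adjusted p = 0.0253). Of 70 tested auxin genes these 2 were called higher and 0 lower, against 1.3% and 2.27% of all tested genes. Among 69 cytokinin and gibberellin genes 3 were called higher and 2 lower, against the same shares. The O-glucosyltransferase LOC_Os07g30620 (0.90, adjusted p = 0.0185) and the GID1L2 type receptor LOC_Os07g44860 (0.53, adjusted p = 0.027) rose. LOC_Os01g55240, a gibberellin 2-beta-dioxygenase that inactivates gibberellin, fell from 5.02, 5.2 and 6.7 FPKM to 2.85, 2.87 and 1 FPKM (−1.09, adjusted p = 0.0303). The calls of the 5 hormone genes named here held in 8, 8, 10, 8 and 9 of 12 fits. Their highest adjusted p were 0.0742 (LOC_Os01g60230, without mutant library 3), 0.074 (LOC_Os10g33940, without WT library 1), 0.0577 (LOC_Os07g30620, without WT library 1), 0.0796 (LOC_Os07g44860, without mutant library 2) and 0.0974 (LOC_Os01g55240, without WT library 3).

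The glutamate synthase LOC_Os05g48200, which assimilates nitrogen, fell from 22.18, 21.81 and 40.52 FPKM to 8.77, 13.49 and 10.96 FPKM (−1.23, adjusted p = 0.0407). The ammonium transporter LOC_Os02g34580 rose from 1.46, 1.19 and 1.24 FPKM to 2.92, 2.21 and 2.68 FPKM (0.65, adjusted p = 0.04). These were the 1 lower and 1 higher call among 22 tested nitrogen genes, against 2.27% and 1.3% of all tested genes. In the iron and metal list of 31 tested genes 1 was called higher and 1 lower, against 1.3% and 2.27% of all tested genes. The helix-loop-helix factor LOC_Os03g26210 rose from 48.4, 35.63 and 45.07 FPKM to 73.17, 56.93 and 88.44 FPKM (0.74, adjusted p = 0.0324). The oligopeptide transporter LOC_Os02g46850 fell from 21.88, 24.69 and 24.55 FPKM to 17.12, 10.04 and 11.8 FPKM (−0.85, adjusted p = 0.0312). These calls held in 3, 4, 7 and 7 of 12 fits, with up to 0.109 without WT library 3, 0.105 and 0.095 without mutant library 3 and 0.095 without mutant library 2.

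A few redox, calcium and lipid transfer genes had calls that held in 12 of 12 fits. Of 114 tested glutathione S-transferases and redoxins 2 were called higher and 0 lower, against 1.3% and 2.27% of all tested genes. Of 33 lipid transfer genes 1 was called higher and 3 lower, and 0 and 1 without mutant library 3. Counts for calcium sensors are given below. LOC_Os04g35520, described as OsAPx7, a stromal ascorbate peroxidase that removes hydrogen peroxide in the chloroplast, rose from 8.97, 12.56 and 12.04 FPKM to 25.86, 17.73 and 21.34 FPKM (0.89, adjusted p = 0.017). LOC_Os01g59530, the calmodulin-like calcium sensor OsCML1, fell from 34.84, 36.9 and 41.34 FPKM to 15.85, 20.89 and 21.3 FPKM (−0.94, adjusted p = 0.00451). The lipid transfer protein LOC_Os11g34660 (LTPL98) fell from 6.71, 6.45 and 6.07 FPKM to 2.55, 2.5 and 1.43 FPKM (−1.25, adjusted p = 0.00591). In none of these genes did the genotypes overlap, which was true of every called gene.

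The cytochrome P450 LOC_Os11g04710 fell from 4.16, 2.46 and 2.22 FPKM to 0.89, 1.06 and 0.62 FPKM (−1.06, adjusted p = 0.0140), also in 12 of 12 fits. The thioredoxin reductase/thioredoxin LOC_Os07g46410, a bifunctional enzyme that passes reducing power from NADPH, rose from 47.51, 36.05 and 38.36 FPKM to 58.62, 93 and 93.03 FPKM (0.97, adjusted p = 0.0331), in 7 of 12 fits and up to 0.102 without mutant library 3. In the 6-library fit, the calls of LOC_Os04g35520 (0.0827) and LOC_Os11g04710 (0.0795) were lost.

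The remaining lists had shares of calls that can be read against the 1.3% higher and 2.27% lower of all tested genes. Expansins and wall loosening genes had 1 called higher and 1 lower of 24 tested, and nucleolar rRNA processing genes 1 and 1 of 39. Cytochrome P450 genes, which oxidise many plant metabolites, had 2 called higher and 6 lower of 110 tested. Calcium sensors had 4 higher and 4 lower of 158, and F-box, RING and U-box genes of protein turnover 8 and 8 of 488. Heat shock proteins and chaperones had 0 higher and 1 lower of 113, and LEA proteins, dehydrins and PP2C phosphatases of the stress response 0 and 2 of 75. Of 30 tested genes for cellulose, lignin and the secondary wall limma called 0 (12 at an unadjusted p below 0.05, against 3860 of all 17630). Transposon and retrotransposon loci, which chromatin often keeps silent, had 2 higher and 2 lower of 183 tested.

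Of the 631 called genes 197 had no informative description. The largest were LOC_Os08g14195 (0.05, 0.02 and 0.08 FPKM in WT and 4.72, 49.18 and 19.09 in the mutant; 4.09, adjusted p = 0.0493) and LOC_Os04g01850 (3.99, 2.62 and 2.94 against 34.39, 22.14 and 21.52; 2.67, adjusted p = 0.0187) among the rises. LOC_Os04g51680 (11.72, 13.77 and 18.61 against 3.38, 0.75 and 0.26; −2.86, adjusted p = 0.0146) and LOC_Os12g18410 (−2.09, adjusted p = 0.0204) were the largest falls. Calls held in 2, 10, 11 and 9 of 12 fits, with up to 0.138 without mutant library 2, 0.0606 and 0.0523 without WT library 3 and 0.0691 without mutant library 2.

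Few loci were on in one genotype and off in the other, counting at least 1 FPKM in all 3 libraries of one and under 0.1 FPKM in all 3 of the other. LOC_Os04g11040 (1.14, 2.47 and 1.15 FPKM) and LOC_Os12g36420 (1.02, 1.09 and 1.02 FPKM) were on in WT and at 0 to 0.08 FPKM in the mutant. LOC_Os03g02470 (3.9, 9.43 and 19.34 FPKM) and LOC_Os08g14195 were on in the mutant and at 0 to 0.08 FPKM in WT. At high Pi limma did not call LOC_Os03g02470 (adjusted p = 0.0592). LOC_Os12g36420 and LOC_Os03g02470 kept these patterns at low Pi in part: LOC_Os12g36420 was at 1.88, 0.64 and 0.59 FPKM in WT and at 0, 0 and 0.04 FPKM in the mutant, and LOC_Os03g02470 at 0.12, 0 and 0.03 against 6.84, 29.35 and 0.2 FPKM. At low Pi LOC_Os08g14195 was on in mutant library 2 alone, with 0.08, 19.54 and 0.08 FPKM in the mutant. LOC_Os04g11040 was not off in the low-Pi mutant, with 1.03, 2.27 and 0.82 FPKM in WT against 0.41, 0.49 and 0.47.

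The same genotypes at low Pi, in 6 other libraries, gave 2796 called genes (15.9% of those tested), 833 higher and 1963 lower. That split rested on the scaling: with median-of-ratios scaling it was 1350 higher and 1382 lower, and with upper-quartile scaling 1165 and 1620. Of the 631 genes called at high Pi, 472 (74.8%) had the same sign at low Pi, against 60.2% of all tested genes. Called at both in the same direction were 239 genes, 70 higher and 169 lower, which is 37.9% of the high-Pi calls and 8.55% of the low-Pi calls. Among those with the largest folds at both were LOC_Os10g41838 (1.63 at high Pi and 1.32 at low Pi), LOC_Os08g28670 (−2.33 and −2.17), LOC_Os04g44924 (−2.24 and −2.14) and LOC_Os04g35520 (0.89 and 1.18). The ZIM genes LOC_Os03g08330 (−3.43 and −4.75) and LOC_Os10g25290 (−3.11 and −3.75) were lower at both.

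A smaller set was called at both Pi levels with opposite signs: 29 genes were higher at high Pi and lower at low Pi, and 34 the reverse. The GRAS factor LOC_Os01g71970 was higher in the mutant at high Pi (1.28) and lower at low Pi (−1.13), where WT had a mean of 16.6 FPKM and the mutant 6.95 FPKM. Its interaction was −2.41 (adjusted p = 0.000924). The expansin LOC_Os03g04020, which loosens walls during growth, was lower in the mutant at high Pi (73.8, 106.32 and 71.13 FPKM against 43.88, 28.24 and 19.09; −1.49, adjusted p = 0.0397) and higher at low Pi (2.05). Its interaction was 3.53 (adjusted p = 0.00425). LOC_Os02g54820, the trehalose-6-phosphate synthase, had folds of −1.48 and 1.93 (interaction 3.41, adjusted p = 0.00296), and the ATP-dependent protease LOC_Os03g29540 of −1.28 (adjusted p = 0.0405) and 1.26 (interaction 2.54, adjusted p = 0.00962). The high-Pi calls of LOC_Os03g04020 and LOC_Os03g29540 held in 3 of 12 fits, with up to 0.116 and 0.121 without mutant library 3. In all, 135 of the 631 genes were also called in the interaction, which shares its high-Pi libraries with this comparison.

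**Figure D5:**
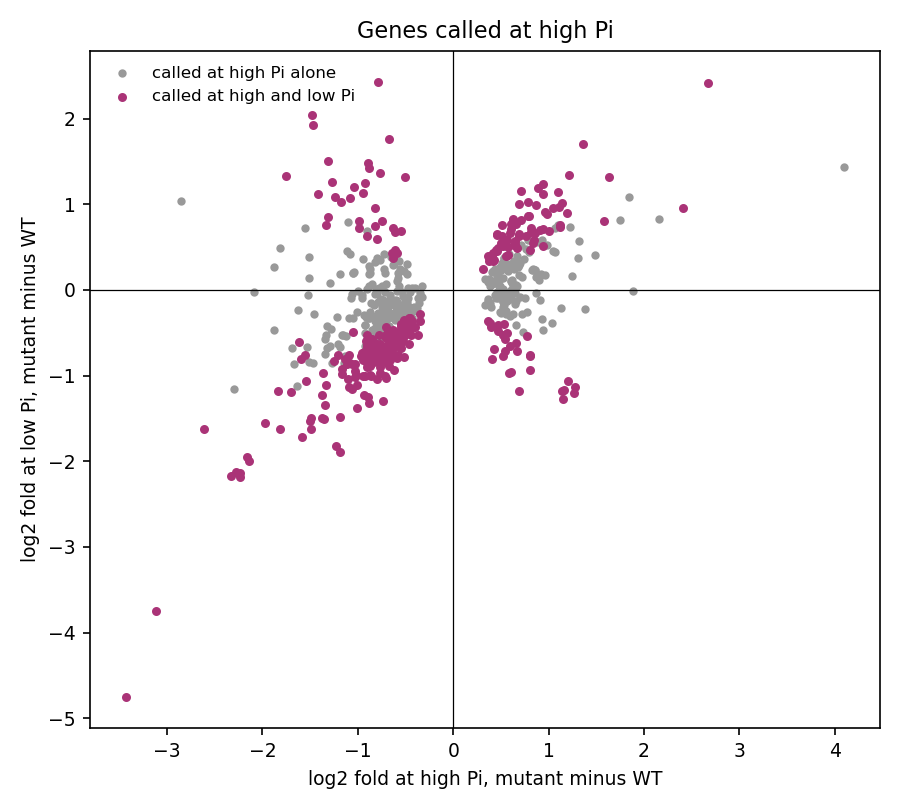
Log2 fold at low Pi against log2 fold at high Pi, both mutant minus WT, for the 631 genes called at high Pi. Purple points are the 302 also called at low Pi, of which 239 lie in the quadrants of equal sign and 63 in those of opposite sign.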

How the data were processed

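The authors deposited FPKM per gene and library, per the file headers, in 4 tables of 32846 genes; 2 tables hold every library once and were used. HISAT2 2.0.5, StringTie 1.3.6 and CASAVA 2.17 are the tools listed, without roles, in the submitters' processing notes; genome build, annotation, strandedness and treatment of multiply mapped reads were not given in the sources used here. The authors' fold and p-value columns were not used. Libraries were made from 1 µg of total RNA with a NEBNext Ultra kit, per the labels.

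The 17630 genes that reached FPKM 1 in 3 or more of the 12 libraries were transformed as log2(FPKM + 1), with a pseudocount of 1. They were fitted with limma 3.58.1 (R 4.3.3), with 4 group means, a mean trend and no block. The two-sided test was adjusted with Benjamini-Hochberg over all tested genes, and genes were called at an adjusted p below 0.05. The fit was tested on simulated data. Tables were handled in Python 3.11.15 (pandas 2.3.3, numpy 2.4.6, matplotlib 3.10.9). Alternatives were another pseudocount, filters, scalings, variance model, replicate block, leaving out each library, and the 6 high-Pi libraries alone.

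Named genes are the loci with HMG descriptions, the 14 largest rises and 14 largest falls among called, described, non-overlapping genes, the largest folds shared with or opposed to low Pi, up to 4 members of smallest p per list, on/off loci and the largest undescribed genes. Lists were matched by description or identifier. Members and lists were chosen with earlier results of these data known, and loci whose descriptions did not belong to a list (such as mTERF proteins among AP2/ERF factors) were removed after values were seen. No sequences are given, as the supplied gene table matched none of the identifiers.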

Additional observations from a re-analysis of the deposited data

Results flagged for a closer look

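Chosen because the difference between mutant and WT itself differed between the Pi levels (limma interaction over 12 libraries, adjusted p below 0.05), 26 of the genes named above are listed with their interaction, the log2 fold at low Pi minus that at high Pi. The genes were named mainly by their fold or p at high Pi. The interaction uses the same high-Pi libraries, so its size is not independent of that choice. Over all tested genes, 259 to 878 passed the interaction in fits without 1 library. WT low-Pi library 3 was highest for LOC_Os09g38020 (209.93, 261.92 and 633.96 FPKM) and LOC_Os04g47420 (2.21, 3.05 and 6.65 FPKM). None of the values listed has an explanation tested here.

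Negative interactions, with the mutant relatively higher at high Pi, were found for the core histones LOC_Os09g38020 (−2.47) and LOC_Os07g36140 (−1.41), histone H3 LOC_Os06g04030 (−2.26) and the bromodomain protein LOC_Os08g09340 (−1.24). Transport and metabolism were represented by the amino acid transporter LOC_Os04g47420 (−2.43), the mitochondrial carrier LOC_Os08g37370 (−2.26) and the anthranilate phosphoribosyltransferase LOC_Os04g58720 (−1.07). Regulators were the GRAS factor LOC_Os01g71970 (−2.41), the RPM1-like LOC_Os11g12340 (−1.60), the helix-loop-helix factor LOC_Os03g26210 (−1.23), the homeodomain gene LOC_Os01g21590 (−1.08), auxin response factor 18 LOC_Os10g33940 (−0.75) and the GID1L2 receptor LOC_Os07g44860 (−0.73). The pentatricopeptide genes LOC_Os09g02260 (−1.12) and LOC_Os12g44170 (−0.80) were also in this group.

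Positive interactions, with the mutant relatively lower at high Pi, were largest for LOC_Os04g51680, which has no informative description (3.90), the expansin LOC_Os03g04020 (3.53), the trehalose-6-phosphate synthase LOC_Os02g54820 (3.41) and the neutral invertase LOC_Os01g22900 (3.09). Smaller ones were those of the ATP-dependent protease LOC_Os03g29540 (2.54), the peroxidases LOC_Os04g59190 (1.57) and LOC_Os08g41090 (0.90), ribosomal protein L7Ae LOC_Os01g70010 (1.14), the trehalose-6-phosphate synthase LOC_Os05g44210 (1.07), the cytochrome P450 LOC_Os11g04710 (1.02) and the 12-oxophytodienoate reductase LOC_Os01g27230 (0.77).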

How the results depend on the processing

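The count of 631 genes at high Pi was 417 with a filter of FPKM 5, 445 without a filter and 103 in the fit to the 6 high-Pi libraries, and 599 to 795 with another pseudocount, scaling or variance model. With the replicate number as a block it was 312. Same-numbered libraries did not deviate together (correlations −0.269, −0.149 and −0.264 at high Pi and −0.192, −0.383 and −0.173 at low Pi). With 3 libraries per group, centred on their mean, these correlations cannot settle whether the numbers pair the samples. Fits without 1 library gave 177 to 851 calls at high Pi, 1274 to 3073 at low Pi and 259 to 878 for the interaction. The interaction count of 641 was 366 without a filter and 391 with the replicate block. With a pseudocount of 0.1, 60 higher and 201 lower called genes had an absolute log2 fold of at least 1, against 37 and 109. LOC_Os06g51220 was called in every fit (fold −1.22 to −1.15, adjusted p 0.00119 to 0.0352). Of 98 named genes called at high Pi, 68 lost the call in the 6-library fit, 67 in at least 1 fit without 1 library, 38 without a filter and 34 with the block, and 0 changed sign in any alternative run; the cause was not tested.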
